A study of Mus musculus with 9 samples.

Results

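The interferon regulatory factors are DNA-binding proteins that share an N-terminal domain recognising GAAA repeats. The family was taken by gene symbol from the deposited gene table, and all 8 members sought were in it: Irf1, Irf2, Irf3, Irf4, Irf5, Irf7, Irf8 and Irf9. They are 8 of 14771 genes in the table, and all 8 passed the filter on low counts that left 11281 genes tested. In GRCm38, with coordinates from the deposited table, Irf1 lies at chr11:53769854-53778374, Irf2 at chr8:46739745-46847458, Irf3 at chr7:44997648-45002848 and Irf4 at chr13:30749233-30766981. Irf5 lies at chr6:29526130-29541869, Irf7 on the minus strand at chr7:141263183-141266499, Irf8 at chr8:120736358-120756694 and Irf9 at chr14:55603985-55610030; all but Irf7 are on the plus strand.

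The samples are 9 RNA sequencing libraries of MH-S cells, an established mouse alveolar macrophage line, in 3 groups of 3. CON cells had 1640 medium alone, and LPS cells had 1 µg/ml lipopolysaccharide, the bacterial ligand of the receptor TLR4, for 4 h. The sample labels of the SUR group name suramin only, whereas the treatment protocol describes 200 µM suramin given with 1 µg/ml LPS for 4 h, and SUR is therefore read here as suramin plus LPS. Suramin is a polyanionic drug that binds many extracellular and intracellular proteins. The labels do not say that the replicates were separate cultures, and the p-values therefore cover no more than library-to-library spread, possibly technical.

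Library totals ran from 15729402 to 16675250 counts. Of 14 macrophage markers sought, 13 were in the table and 9 passed the filter on low counts, among them Cd68, Lyz2, Csf1r and Adgre1. The rest of those in the table were the alveolar macrophage genes Marco, Siglecf, Pparg and Chil3, with at most 10 counts in any library. They are named because they failed the filter, and alveolar identity was not tested. Epithelial and neutrophil marker lists had 0 tested genes and summed to at most 0.318 CPM (counts relative to library size) in any library. The lymphoid list and the stromal and endothelial list, with 1 tested gene each, summed to at most 1.09 and 1.32 CPM. The dendritic list, with 2 tested genes, summed to 73.2 to 109 CPM, and the macrophage list to 4780 to 7418. Libraries numbered 1 stood apart in every group: their counts differed from the other 2 of their group by a chi-square of 28.6 to 36.0 per degree of freedom, against 3.76 to 6.07 between libraries 2 and 3. Library 1 was the highest of the 3 in every group for 27.7% of tested genes and for 4 of the 8 members (Irf4, Irf7, Irf8 and Irf9). It was the lowest in every group for 25.8% of genes and for Irf5.

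As background, LPS signals through TLR4 and the adaptor TRIF to phosphorylate the constitutive factor IRF3, which together with NF-kappaB switches on Ifnb1, the gene of interferon-beta. Secreted interferon-beta then acts through its receptor on ISGF3, the complex that holds IRF9, which binds interferon-stimulated response elements (ISRE) and classically raises Irf7 mRNA. IRF1 is induced through NF-kappaB sites in its promoter, IRF2 is known as its antagonist at the same elements, IRF5 acts downstream of MyD88 on cytokine genes, and IRF4 and IRF8 act with the ETS factor PU.1 in myeloid cells.

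The upstream sequences of Irf1, Irf2 and Irf7 are shown because these are the members set against each other below: the inducible factor, its antagonist and the interferon-amplified factor. The sequences are RefSeq's for GRCm38.p6, 5′ to 3′ on the gene's strand, and the capitals mark motif matches found on either strand; bases inside the gene's span are left out, except around 2 matches in Irf1. RefSeq starts Irf1 at chr11:53770014, 160 bases inside the span that the deposited table gives, so both Irf1 matches lie before the RefSeq start and within the deposited span, and 28 bases around each are shown. The stretches are chr11:53769914-53769941 and chr11:53769986-53770013 (plus strand) for Irf1, chr8:46739495-46739744 (plus strand) for Irf2 and chr7:141266500-141266674 (minus strand) for Irf7.
Irf1 GAS: acagcctgatTTCCCCGAAatgatgagg
Irf1 kappaB: ggccgagtccgggccGGGGAATCCCgct
Irf2: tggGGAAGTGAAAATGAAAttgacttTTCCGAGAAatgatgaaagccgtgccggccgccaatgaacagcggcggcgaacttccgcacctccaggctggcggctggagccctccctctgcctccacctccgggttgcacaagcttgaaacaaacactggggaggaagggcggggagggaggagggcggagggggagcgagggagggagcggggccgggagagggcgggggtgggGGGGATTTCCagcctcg
Irf7: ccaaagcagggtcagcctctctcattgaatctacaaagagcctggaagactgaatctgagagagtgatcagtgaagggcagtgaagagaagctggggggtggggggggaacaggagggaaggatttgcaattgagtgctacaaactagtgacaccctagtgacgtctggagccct

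Searches covered the window from 250 bases before to 50 bases after each RefSeq start site, and positions below count bases before that start. The ISRE was searched as GAAA, any 2 bases and GAAA, and 3.44% of 32851 RefSeq mouse windows held it. The STAT element GAS was TTCNNNGAA (8.3% of windows), the ETS-IRF element EICE was GGAA, any 2 bases and GAAA (2.72%), and the kappaB motif was found in 8.46%. In Irf1, TTCCCCGAA is a GAS match at 90 to 82 bases before the RefSeq start, and GGGGAATCCC is a kappaB match at 13 to 4 bases before it. The Irf2 window held all 4 motifs: ISRE and EICE matches that overlap in the first capital run, a GAS match, TTCCGAGAA, and a kappaB match, GGGGATTTCC. The Irf7 window held none of the 4, and neither did the windows of Irf3, Irf4, Irf5 and Irf9; Irf8 held 2 GAS matches. A match describes these letters only, and occupancy of these sites was not measured here. Of 23 antiviral genes of the ISRE kind with such a window, a list described below, 13 held an ISRE match. A window without a match therefore does not show that a gene lacks the element.

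Ifnb1 mRNA was the marker of interferon-beta production, in CPM after TMM scaling, the scale used below unless another is named. It stood at 2.04, 0.365 and 0 CPM in CON libraries 1, 2 and 3, where 3 counts would be 0.179 CPM in the last. It stood at 32.6, 22.3 and 21.4 in LPS and at 0.461, 0.118 and 0.409 in SUR. All LPS libraries lay above all CON and SUR libraries, and the CON and SUR libraries overlapped. The log2 difference was 4.96 (SE 0.714) for LPS against CON, with an adjusted p of 0.00146, and -6.23 (SE 0.804) for SUR against LPS, with an adjusted p of 0.00121. All adjusted p-values here come from the quasi-likelihood test of edgeR, adjusted by Benjamini-Hochberg over the 11281 tested genes. The LPS against CON value ran from 4.38 to 7.09 over 21 alternatives, highest without CON library 1, and was 6.87 without the libraries numbered 1. Both Ifnb1 calls ended without the libraries numbered 2 (adjusted p 0.0832 and 0.0815). In bulk RNA, fewer producing cells and less Ifnb1 mRNA per cell cannot be told apart, and this holds for every gene below.

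In LPS against CON, 3 of the 8 members passed the test: Irf1 and Irf5 rose and Irf8 fell. Over all tested genes 18.3% passed in that comparison, 8.98% higher and 9.36% lower. Between SUR and LPS 1 of 8 passed, Irf5, which fell, against 17.2% of all genes (9.29% higher, 7.93% lower). Between SUR and CON 1 of 8 passed, Irf1, which was higher, against 0.425% of all genes (0.39% higher, 0.0355% lower). The median log2 difference of the 8 members was 0.05, 0.08 and -0.06 in the 3 comparisons, and that of all tested genes was -0.01 in each. The comparisons share groups (SUR against LPS and LPS against CON share the LPS libraries), so their values are given side by side and not correlated.

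**Figure D1:**
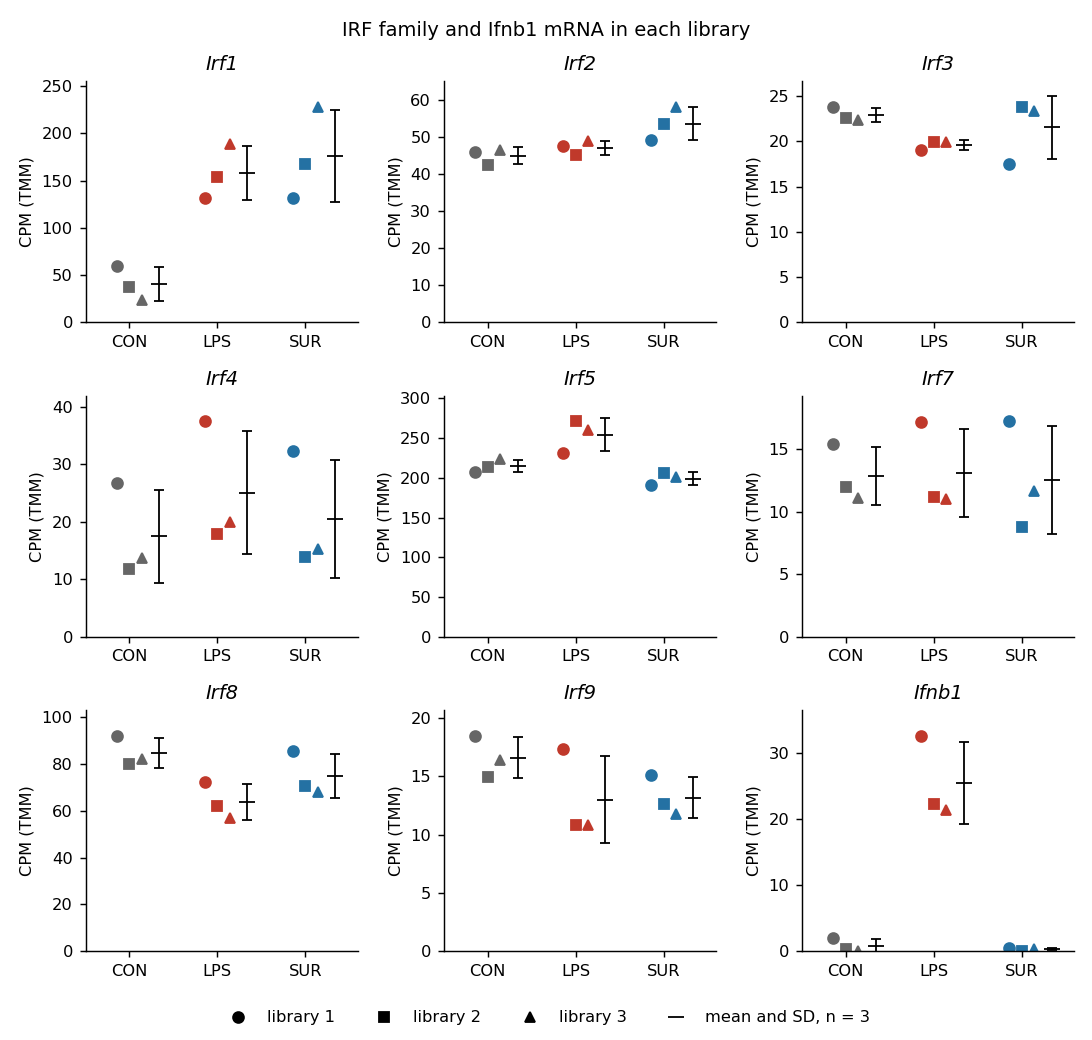
mRNA level in CPM (vertical axes, from 0) of the 8 members and Ifnb1 in each library, with symbols for library numbers 1 to 3 and a black mark and bar for mean and SD of 3 libraries. All Irf1 points of LPS (131 to 189) and SUR (132 to 228) lie above those of CON (23.3 to 59.3), while the Irf7 points of the 3 groups overlap.

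Irf1, a fast responder to NF-kappaB, stood at 59.3, 37.4 and 23.3 CPM in CON. It stood at 131, 154 and 189 in LPS. It stood at 132, 168 and 228 in SUR. Every LPS and SUR library was above every CON library, and the LPS and SUR libraries overlapped. Irf1 rose 3.95-fold in LPS against CON (log2 1.98, SE 0.330, adjusted p 0.00315) and was 4.39-fold higher in SUR than in CON (log2 2.14, SE 0.332, adjusted p 0.0393). SUR differed from LPS by 0.15 (95% interval -0.56 to 0.87, adjusted p 0.813). Within the same library number, the log2 difference of LPS and CON was 1.14, 2.04 and 3.01 for numbers 1, 2 and 3, and that of SUR and CON 1.15, 2.16 and 3.29. Library 1 had the highest Irf1 level of CON and the lowest of LPS and SUR.

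Some genes that LPS raised differed widely between the CON libraries: the cytokine gene Tnf, picked for this check with its values known, had 404, 92.1 and 22.1 CPM in CON libraries 1, 2 and 3, and Nfkbiz had 257, 58.9 and 11.4. Others did not: Ikbke, also picked with its values known, had 41.2, 55.2 and 54.4. Irf1 was likewise highest in CON 1 and lowest in CON 3, and the part of this spread in the Irf1 result was not tested. Without CON library 1, the log2 difference of Irf1 was 2.39 for LPS against CON (adjusted p 0.000941) and 2.53 for SUR against CON (adjusted p 0.005). The SUR against CON call ended in 10 of 21 alternative settings, with adjusted p of 0.156 in the fit of only those 2 groups and up to 0.999 in the other 9, which left out CON 2, CON 3, LPS 1, LPS 2, LPS 3, SUR 2, SUR 3, number 2 or number 3. The LPS against CON call ended only without the libraries numbered 2 (adjusted p 0.121).

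Irf7, the factor that interferon normally amplifies through ISGF3, stood at 15.5, 11.99 and 11.1 CPM in CON. It stood at 17.2, 11.2 and 11.02 in LPS. It stood at 17.2, 8.75 and 11.7 in SUR. The groups overlapped in all 3 comparisons and library 1 was the highest in each. The log2 difference was 0.03 (95% interval -0.58 to 0.64, adjusted p 0.968) in LPS against CON, -0.06 (-0.68 to 0.55, adjusted p 0.918) in SUR against LPS and -0.03 (-0.64 to 0.58, adjusted p 0.999) in SUR against CON. The sign of the LPS against CON difference turned negative under upper-quartile scaling (-0.062) and with deposited FPKM (-0.12), and the SUR against LPS difference turned positive (0.025 and 0.061). Irf7 mRNA passed the test in no comparison, with or without the block, while Ifnb1 rose in the same LPS libraries.

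**Figure D2:**
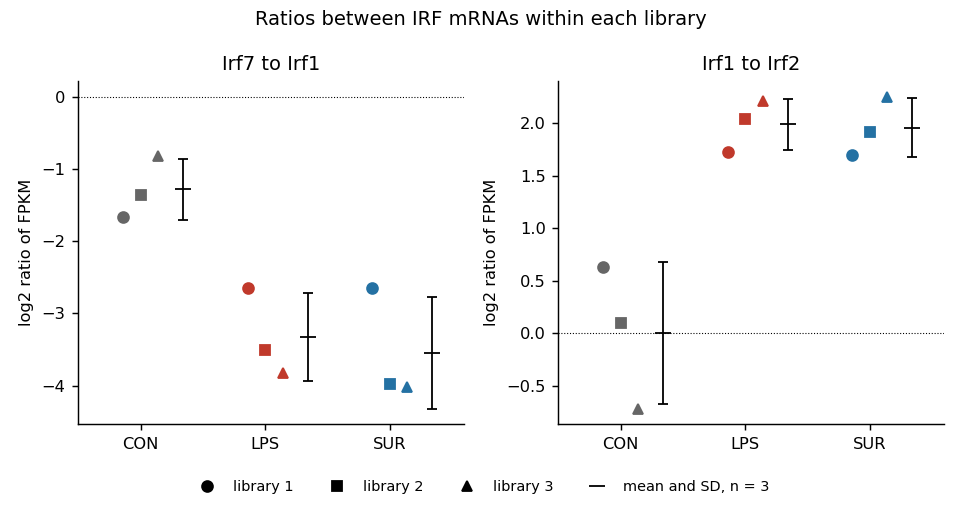
Log2 ratio of FPKM within each library (vertical axes) by group, for Irf7 to Irf1 at left and Irf1 to Irf2 at right, with symbols for library numbers and a black mark and bar for mean and SD of 3 libraries. The mean log2 ratio of Irf7 to Irf1 is -1.28 in CON, -3.33 in LPS and -3.54 in SUR.

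Irf1 against Irf7 was compared per length, with the authors' FPKM, in each library. The ratio of Irf1 to Irf7 FPKM was 3.16, 2.58 and 1.77 in CON. It was 6.29, 11.4 and 14.2 in LPS. It was 6.27, 15.7 and 16.1 in SUR. All LPS and SUR ratios exceeded all CON ratios, and LPS and SUR overlapped. The log2 ratio of Irf7 to Irf1 fell by 2.05 in LPS and by 2.26 in SUR against CON, each with an exact two-sided permutation p of 0.1, which is the smallest p that 3 against 3 libraries can give (0.15 after Benjamini-Hochberg adjustment over the 3 comparisons). It differed by -0.21 between SUR and LPS (exact permutation p 0.6, adjusted 0.6).

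Irf2, which competes with IRF1 for the same elements and represses many of them, stood at 46.1, 42.4 and 46.6 CPM in CON. It stood at 47.5, 45.2 and 48.9 in LPS. It stood at 49.2, 53.7 and 58.3 in SUR. The SUR libraries were all higher than those of both other groups, and the CON and LPS libraries overlapped. The log2 difference was 0.07 (adjusted p 0.669) in LPS against CON, 0.19 (SE 0.0782, adjusted p 0.148) in SUR against LPS and 0.25 (SE 0.0781, adjusted p 0.292) in SUR against CON, so none passed. In the fit with the library number as a block both SUR differences passed (adjusted p 0.0204 and 0.0163). Without the libraries numbered 1 both passed too (adjusted p 0.0431 and 0.0350). SUR against LPS also passed with upper-quartile scaling (adjusted p 0.0343) and with log2(FPKM + 0.1) and log2(FPKM + 1) in limma (0.0259 and 0.0262). The LPS against CON sign turned to -0.026 with upper-quartile scaling. The ratio of Irf1 to Irf2 FPKM was 1.55, 1.07 and 0.606 in CON, 3.30, 4.10 and 4.62 in LPS and 3.24, 3.78 and 4.77 in SUR.

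Irf3, the latent factor that TBK1 phosphorylates, stood at 23.8, 22.6 and 22.4 CPM in CON. It stood at 19.0, 19.9 and 19.9 in LPS. It stood at 17.5, 23.8 and 23.4 in SUR. LPS libraries were all below CON libraries, whereas SUR libraries overlapped both groups; the log2 difference of LPS and CON was -0.23 (95% interval -0.49 to 0.04, adjusted p 0.253). Irf9, the DNA-binding subunit of ISGF3, stood at 18.4, 14.9 and 16.4 CPM in CON, at 17.3, 10.8 and 10.8 in LPS and at 15.1, 12.7 and 11.8 in SUR. The groups overlapped in each comparison, with a log2 difference of -0.35 (adjusted p 0.290) in LPS against CON. In the fit with the library number as a block Irf9 fell in LPS against CON (adjusted p 0.0162), and without the libraries numbered 1 it fell by 0.52 (adjusted p 0.00476).

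Irf5, a MyD88-dependent activator of inflammatory cytokine genes, had the highest mean FPKM of the members in each group. It stood at 208, 213 and 223 CPM in CON. It stood at 232, 271 and 261 in LPS. It stood at 191, 206 and 201 in SUR. The LPS libraries were the highest and the SUR libraries the lowest, with no overlap between any of the groups. Irf5 rose 1.18-fold in LPS (log2 0.24, SE 0.0732, adjusted p 0.0493) and fell 1.28-fold in SUR against LPS (log2 -0.35, SE 0.0732, adjusted p 0.0109). SUR against CON gave -0.11 (adjusted p 0.787). The rise was called in 5 of 21 alternatives; it fell to 0.15 (adjusted p 0.213) with upper-quartile scaling and 0.10 (adjusted p 0.300) with FPKM, and the fall in SUR kept its call in 18 of 21, ending with log2(FPKM + 0.1) (adjusted p 0.0502) and without number 2 (0.179) or number 3 (0.191). Exons of Irf5 share 411 bases with Tnpo3 on the opposite strand, 14.1% of its annotated exon length, and whether counting used strand is not stated.

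Irf8, which with PU.1 supports macrophage differentiation, stood at 91.8, 79.8 and 81.9 CPM in CON. It stood at 72.3, 61.9 and 57.0 in LPS. It stood at 85.4, 70.7 and 68.1 in SUR. LPS libraries were below all CON libraries and SUR libraries overlapped both. Irf8 fell 1.33-fold in LPS (log2 -0.41, SE 0.116, adjusted p 0.0406), and SUR against LPS gave 0.23 (adjusted p 0.228). With the library number as a block, SUR was higher than LPS (adjusted p 0.00214) and lower than CON (adjusted p 0.0268). The call in LPS ended in 8 of 21 alternatives, those without CON 1, CON 2, CON 3, LPS 2, LPS 3, SUR 2, number 2 or number 3, with adjusted p up to 0.291.

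Irf4, known for alternative macrophage activation and for restraining MyD88 signalling, stood at 26.7, 11.9 and 13.8 CPM in CON. It stood at 37.5, 17.8 and 19.998 in LPS. It stood at 32.3, 13.96 and 15.2 in SUR. The groups overlapped, and library 1 was above the other 2 in each, by 1.06, 0.98 and 1.14 on the log2 scale in CON, LPS and SUR. Within the same number, LPS exceeded CON by 0.48, 0.58 and 0.54 and SUR was below LPS by 0.21, 0.35 and 0.39. The log2 difference of LPS and CON was 0.52 (SE 0.437, adjusted p 0.520), and with the library number as a block it was 0.53 (adjusted p 8.65e-05). SUR against LPS gave -0.29 (adjusted p 0.730), or -0.31 with the block (adjusted p 0.00318).

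The block raised the number of members called from 3 to 5 in LPS against CON (Irf1, Irf4 and Irf5 higher, Irf8 and Irf9 lower), where it called 41.8% of all genes. In SUR against LPS it raised the number from 1 to 4 (Irf2 and Irf8 higher, Irf4 and Irf5 lower) against 45.3% of all genes. In SUR against CON it raised it from 1 to 3 (Irf1 and Irf2 higher, Irf8 lower) against 11.5%. Groups without overlap were found for 4 of 8 members in LPS against CON (32% of all genes), for 2 of 8 in SUR against LPS (34.9%) and for 3 of 8 in SUR against CON (15%).

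**Figure D3:**
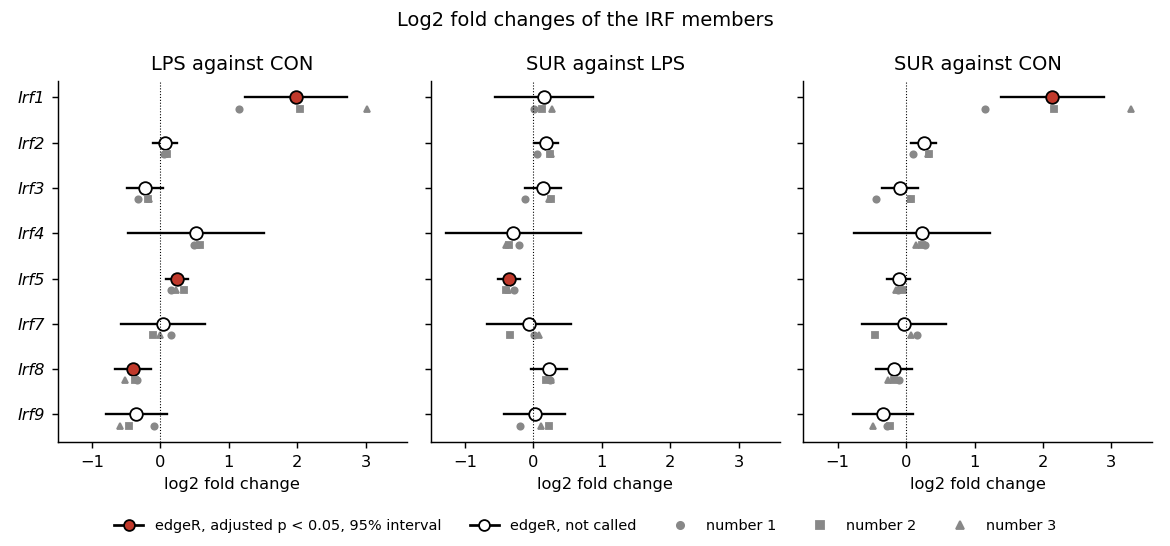
Log2 fold change of the 8 members (horizontal axis) in the 3 comparisons, with edgeR estimates and 95% intervals as circles and lines (filled where the adjusted p was under 0.05) and grey symbols for the difference within each library number. The Irf1 intervals of LPS and SUR against CON run from 1.23 to 2.73 and from 1.38 to 2.89, and that of SUR against LPS crosses 0.

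Levels were also ordered between members, in FPKM. In CON the order of mean FPKM was Irf5 115.8, Irf8 33.8, Irf1 22.2, Irf2 20.7, Irf3 14.05, Irf7 8.59, Irf9 7.80 and Irf4 4.02. Irf8 and Irf1, Irf1 and Irf2, and Irf7 and Irf9 were neighbours whose libraries overlapped. In LPS, Irf1 moved to second place at 79.3 behind Irf5 at 124.6, and in SUR Irf1 at 97.3 and Irf5 at 107.4 overlapped. The ratio of Irf5 to Irf1 FPKM was 3.40, 5.52 and 9.33 in CON, 1.72, 1.72 and 1.35 in LPS and 1.41, 1.19 and 0.857 in SUR.

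By root mean square difference of centred log2 CPM over the 9 libraries, among 7713 genes, the 5 genes most like Irf1 were Zfp36 (0.279), Dusp2 (0.298), Nfkbid (0.307), Ptger4 (0.318) and Tagap (0.360). Zfp36, which encodes the mRNA decay factor tristetraprolin, averaged 217, 894 and 1026 CPM in CON, LPS and SUR. All 5 passed the test in LPS against CON and, at adjusted p of 0.0195 to 0.0495, in SUR against CON. None passed in SUR against LPS (with the block Nfkbid did at an adjusted p of 0.0431 and Tagap at 0.0204). The 5 most like Irf7 were Dcps (0.0963), Ifrd2 (0.110), Recql4 (0.114), Pole (0.114) and Rbl1 (0.114), and none of them passed in any comparison (with the block Ifrd2 did in SUR against LPS, adjusted p 0.0123). Since likeness was defined over the same libraries, these calls follow from it and are a description.

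The counts of called genes in the lists below stand beside 18.3%, 17.2% and 0.425% of all tested genes called in LPS against CON, SUR against LPS and SUR against CON. Calls over all genes also changed widely when libraries were left out. They ran from 452 to 3415 in LPS against CON and from 133 to 3391 in SUR against LPS, both highest without the libraries numbered 1. Whether any list count below moved more than the calls over all genes was not tested. At the 0.425% of SUR against CON, a count of 0 in a list of 5 to 25 genes is no result about that list. The other SUR against CON counts below have larger shares beside them. Of all 11281 tested genes, 1041 had an unadjusted p under 0.05 there. DESeq2 called 259 of them and limma-voom 49. The block called 1302 (11.5%), and 587 were called without the libraries numbered 1.

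Genes that switch on the IRFs were described as a list of 22 tested receptors, adaptors and kinases. In LPS against CON 8 rose and 3 fell (50% called against 18.3% of all genes, median log2 difference 0.25), with Cd14, the LPS co-receptor, at 2.94, the RNA sensor Ifih1 at 2.44, the IRF3 kinase Ikbke at 1.53 and its scaffold Tank at 1.09. The 3 that fell, named after their values were seen, were the adaptors Ticam2 (-0.54), Mavs (-0.67) and Tmem173 (-0.25). From LPS to SUR 3 rose and 7 fell (45.5% against 17.2%, median -0.09), among them Ifih1 at -2.62, Cd14 at -1.79, Tank at -1.13 and Ticam1, the TRIF gene, at -1.09. Between SUR and CON edgeR called 0 of 22 (3 at an unadjusted p under 0.05, 2 by DESeq2, 0 by limma-voom, 5 with the block, 4 without the libraries numbered 1). The 11 and 10 calls of the first 2 comparisons came to 5 and 2 without the libraries numbered 2 and to 4 and 4 without number 3; without LPS 2 they were 7 and 5, and without CON 3 the 11 were 7.

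Of 12 interferon receptor, JAK and STAT genes, 3 rose in LPS against CON and 0 fell (25% called against 18.3% of all genes, median 0.20): the kinase gene Jak2 by 1.10 and the receptor genes Ifngr1 by 1.03 and Ifnar2 by 0.42 on the log2 scale. From LPS to SUR 4 fell and 0 rose (33.3% against 17.2%, median -0.18), Jak2 at -1.10, Ifngr1 at -0.49, Ifnar2 at -0.39 and Stat2 at -0.29. The 3 and 4 calls came to 1 and 0 without the libraries numbered 2 and likewise without number 3, the 3 became 7 without number 1, and the 4 were 2 without LPS 3, SUR 1 or SUR 2. In SUR against CON edgeR called 1 of 12, Ifngr1 (0.54, adjusted p 0.0495), and this count moved in 16 of 21 alternatives. It was 2 by DESeq2, 6 with the block, 4 without number 1 and 0 in the other 13, and 5 of 12 had an unadjusted p under 0.05.

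Of 25 tested antiviral genes of the ISRE kind, 14 rose and 3 fell in LPS against CON (68% called against 18.3% of all genes, median 1.43 against -0.01), and 1 rose and 14 fell in SUR against LPS (60% against 17.2%, median -1.40). The 17 and 15 calls came to 3 and 3 without the libraries numbered 2, and the 17 to 10 without number 3. Ifit1, an antiviral RNA-binding protein gene, stood at 15.5, 3.47 and 1.13 CPM in CON, at 153, 134 and 121 in LPS and at 3.805, 2.90 and 2.46 in SUR. Its log2 difference was 4.34 (adjusted p 0.00189) and -5.48 (adjusted p 0.00126) in the first 2 comparisons, and the first was 5.90 without CON library 1. Ifit3b, Ifit3 and the chemokine gene Cxcl10 changed by 4.33, 3.88 and 4.75 in LPS against CON and by -6.56, -4.99 and -4.18 in SUR against LPS. The genes that fell in LPS, Oas2 (-0.38), Trim21 (-0.59) and Eif2ak2 (-0.25), and the 1 that rose in SUR, Oas2 (0.49), are named after their values were seen. In SUR against CON, where 0.425% of all genes passed, edgeR called 0 of 25 (0 at an unadjusted p under 0.05, 0 by DESeq2, 0 by limma-voom, 0 with the block, 1 without the libraries numbered 1). Ifit and Gbp genes have near-identical copies whose reads the counting could split, so their values are uncertain.

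**Figure D4:**
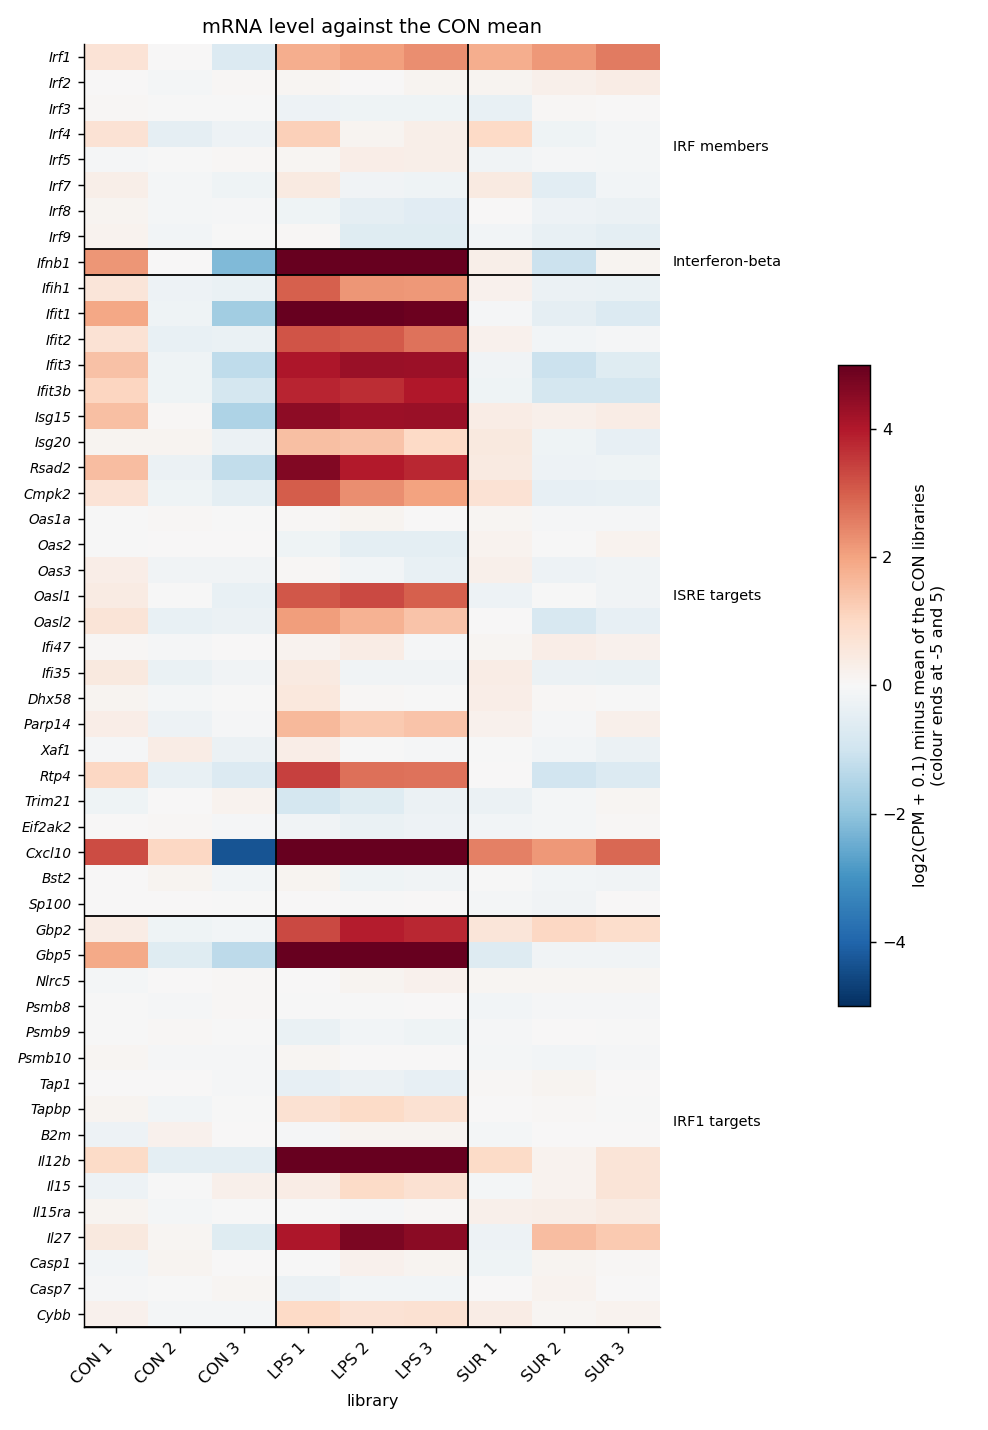
Heat map of log2(CPM + 0.1) minus the mean of the CON libraries for the 8 members, Ifnb1 and all tested genes of the ISRE and IRF1 target lists (rows) in the 9 libraries (columns), with colours ending at -5 and 5. Ifnb1, Ifit1 and Gbp5 are high in the 3 LPS libraries and not in SUR, while Irf1 is high in both. Il12b is higher in LPS than in CON (log2 6.19) and lower in SUR than in LPS (log2 -5.30).

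Of 16 tested genes known to be induced through IRF1, 6 rose and 1 fell in LPS against CON (43.8% called against 18.3% of all genes, median 0.12), and 1 rose and 6 fell in SUR against LPS (43.8% against 17.2%, median -0.14). The 7 and 7 calls came to 4 and 3 without the libraries numbered 2, and the first to 11 without number 1. Gbp2, an interferon-inducible GTPase gene, stood at 1.17, 0.731 and 0.774 CPM in CON, at 9.38, 14.5 and 13.3 in LPS and at 1.38, 1.89 and 1.70 in SUR. The LPS libraries stood above all others, and the SUR libraries above CON. Gbp2 rose by 3.78 (adjusted p 4.49e-05) and fell by 2.90 (adjusted p 0.000211) on the log2 scale. Gbp5, Il27 and Il12b changed by 5.37, 4.58 and 6.19 in LPS against CON and by -6.90, -3.49 and -5.299 in SUR against LPS. Tap1, the peptide transporter gene, went the other way, at -0.37 and 0.45, and was picked out with these values known. In SUR against CON, where 0.425% of all genes passed, edgeR called 0 of 16 (2 at an unadjusted p under 0.05, 0 by DESeq2, 0 by limma-voom, 1 with the block, 3 without the libraries numbered 1).

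Of 10 partners of IRF4 and IRF8 and lineage factors, 3 rose and 2 fell in LPS against CON (50% called against 18.3% of all genes, median 0.28): Cebpb by 1.15, Bhlhe40 by 1.03 and Spi1, the gene of PU.1, by 0.43 (named for its call in SUR), with Cebpa at -0.84 among those that fell. From LPS to SUR 2 rose and 2 fell (40% against 17.2%, median -0.03), among them Cebpa at 0.76, Bhlhe40 at -0.82 and Spi1 at -0.41. Of these, edgeR called 0 of 10 in SUR against CON (3 at an unadjusted p under 0.05, 2 by DESeq2, 0 by limma-voom, 4 with the block, 2 without the libraries numbered 1). The 5 and 4 calls came to 3 and 1 without number 2 and to 3 and 2 without number 3, and the 5 to 8 without number 1.

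Of 12 co-factors and regulators of IRF proteins, 2 rose and 4 fell in LPS against CON (50% called against 18.3% of all genes, median 0.10), and 3 rose and 3 fell in SUR against LPS (50% against 17.2%, median -0.12). The 6 and 6 calls came to 1 and 1 without the libraries numbered 2 and to 0 and 1 without number 3, and the first to 2 without CON 3 and to 3 without LPS 1 or LPS 2. Irf2bp2, which encodes a corepressor that binds IRF2, stood at 92.6, 128 and 104 CPM in CON, at 33.5, 51.6 and 37.4 in LPS and at 93.4, 122 and 91.1 in SUR. All LPS libraries lay below those of the other groups, and CON and SUR overlapped. It fell 2.65-fold in LPS (log2 -1.41, SE 0.191, adjusted p 0.00108) and rose 2.504-fold in SUR against LPS (log2 1.32, adjusted p 0.00203). Both calls ended without the libraries numbered 3 (adjusted p 0.0561 and 0.0716). Its relative Irf2bp1 fell by 0.54 (adjusted p 0.0241) and rose by 0.49 (adjusted p 0.0410), calls that ended in 6 and 10 of 21 alternatives. The acetyltransferase gene Ep300 rose by 0.50 in SUR against LPS, and the nuclear import gene Kpna3 rose by 0.39 in LPS and fell by 0.48 in SUR. Between SUR and CON it was 0 of 12 by edgeR (0 at an unadjusted p under 0.05, 0 by DESeq2, 0 by limma-voom, 1 with the block).

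All 11 NF-kappaB subunit and inhibitor genes rose in LPS against CON (100% called against 18.3% of all genes, median 2.36), with Nfkbiz at 4.18, Tnfaip3 at 3.84, Nfkbie at 3.22 and Rel at 2.81. From LPS to SUR 7 fell and 0 rose (63.6% against 17.2%, median -1.22), with Rel at -1.80, Nfkbie at -1.75, Relb at -1.51 and Nfkbib at -1.22. The other 4, Nfkbia, Nfkbiz, Bcl3 and Tnfaip3, did not pass in that comparison (8 of 11 fell with the block). The 11 and 7 calls came to 7 and 1 without the libraries numbered 2, and the 11 to 9 by DESeq2. Their median in SUR against CON was 0.91, and edgeR called 0 of 11 (9 at an unadjusted p under 0.05, 7 by DESeq2, 0 by limma-voom, 9 with the block, 10 without the libraries numbered 1). Nfkbia stood at 240, 94.6 and 29.2 CPM in CON, 627, 694 and 812 in LPS and 502, 518 and 645 in SUR. The naming rule did not pick Nfkbia, and it is 1 of the 4 that did not pass in SUR against LPS, so it does not stand for the 7 that fell.

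All 6 tested cytokine genes known as IRF5 targets rose in LPS against CON (100% called against 18.3% of all genes, median 5.20), led by Il1b at 6.58 and Il12b at 6.19, and 4 fell in SUR against LPS (66.7% against 17.2%, median -3.45), Il12b, Il6, Il23a and Il1b. The 6 and 4 calls came to 2 and 1 without the libraries numbered 2, the 6 to 5 by DESeq2 and the 4 to 2 with log2(FPKM + 0.1). Between SUR and CON the median log2 difference of the 6 was 2.32, against -0.01 over all tested genes. There edgeR called 0 of 6 (4 at an unadjusted p under 0.05, 2 by DESeq2, 0 by limma-voom, 4 with the block, 4 without the libraries numbered 1). Of 5 tested genes linked to IRF4, 2 rose in LPS and fell in SUR against LPS: the chemokine gene Ccl22 (5.56 and -5.58) and the demethylase gene Kdm6b (3.39 and -2.40), or 40% called in each. The count was 1 in LPS against CON without the libraries numbered 3 and 1 in SUR against LPS without number 2. Ccl22 was at 0 counts in 2 of 3 CON and 2 of 3 SUR libraries and at 1.25 to 1.33 CPM in LPS. Between SUR and CON it was 0 of 5 by edgeR (1 at an unadjusted p under 0.05, 1 by DESeq2, 0 by limma-voom, 1 with the block). Of 12 housekeeping genes, 1 passed in LPS against CON (Tfrc, 0.42), 1 in SUR against LPS (Gapdh, -0.22) and 0 in SUR against CON by edgeR (1 at an unadjusted p under 0.05, 1 by DESeq2, 0 by limma-voom). The first 2 of these counts were 0 and 0 without number 2 or number 3 and 4 and 5 without number 1. Some lists share genes, so their counts are not independent. B2m is on the housekeeping and IRF1 target lists, and Il12b on the IRF1 target and IRF5 cytokine lists. Ifih1 is on the ISRE list and that of genes that switch on the IRFs, and Trim21 on the ISRE and co-factor lists.

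**Figure D5:**
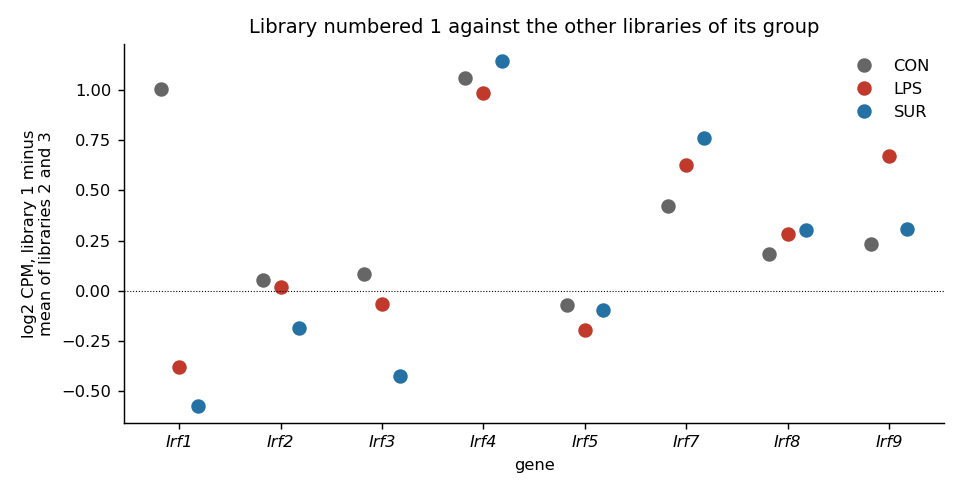
Log2 CPM of the library numbered 1 minus the mean of libraries 2 and 3 (vertical axis) for each member, with 1 point per group. Irf4 lies between 0.98 and 1.14 in all 3 groups, while Irf1 is at 1.00 in CON and below 0 in LPS and SUR.

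The plot of library 1 against libraries 2 and 3 shows that members differ in this offset. Irf4 was 1.06, 0.98 and 1.14 higher in library 1 of CON, LPS and SUR, and Irf7 0.42, 0.63 and 0.76. Irf1 differed in sign between the groups, 1.00 in CON, -0.38 in LPS and -0.57 in SUR.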

How the data were processed

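RNA of 9 MH-S libraries (3 groups of 3) was sequenced. HISAT2 2.0.4 and GRCm38 (mm10) are named in the submitters' processing notes; no source used here gives the counter, its strand setting or the annotation release. Expected counts, as the authors deposited them, are unnormalized estimates (93.4% whole numbers), and were rounded. FPKM are the authors' length- and depth-scaled values; the deposited TPM sums were 999999 to 1000001. The authors' deposited log2 fold changes, p-values and q-values were not used.

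Genes passing edgeR's filterByExpr were TMM-scaled (factors 0.934 to 1.043) and tested with edgeR 4.0.16 (R 4.3.3) in 1 quasi-likelihood fit of all libraries, with Benjamini-Hochberg adjustment at 0.05. limma 3.58.1 and DESeq2 1.42.0 were alternatives, and the code was tested on simulated data. Libraries with the same replicate number in the labels deviated together from their group means (correlations 0.435 to 0.801 in all 9 pairs, -0.643 to 0.437 between numbers). Between numbers 2 and 3 of different groups the correlations were 0.347 to 0.437, against 0.435 to 0.586 within number 2 or 3. Pairing was thus plain for number 1 and weak for numbers 2 and 3. Numbers were treated as pairs in a block fit. Named genes were the members, Ifnb1, up to 4 called genes per list and comparison with the largest changes, and the 5 genes most like Irf1 and Irf7. Some genes that this rule names are not reported here. Members, lists and rules were chosen with earlier results of these data known. Figures used matplotlib 3.10.9.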

Additional observations from a re-analysis of the deposited data

How the results depend on the processing

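With the library number as a replicate block, 5, 4 and 3 members were called in LPS against CON, SUR against LPS and SUR against CON, in place of 3, 1 and 1, and 4714, 5109 and 1302 of all genes in place of 2069, 1943 and 48. All 70 calls of list genes picked by the naming rule were also made with the block. Leaving out single libraries or numbers (12 fits) ended 20 of the 34 such calls in LPS against CON in at least 1 fit. It ended 29 of the 35 in SUR against LPS and the 1 in SUR against CON. The block raised list counts by over 1.5 times in LPS against CON for the IRF-activating genes (11 to 19), the receptor, JAK and STAT genes (3 to 9), the partners (5 to 8) and housekeeping genes (1 to 5). In SUR against LPS it did so for the IRF-activating genes (10 to 17), the receptor, JAK and STAT genes (4 to 8), the IRF1 targets (7 to 13), the partners (4 to 8) and housekeeping genes (1 to 7). In SUR against CON the counts rose for the NF-kappaB genes (0 to 9), the receptor, JAK and STAT genes (1 to 6) and the IRF-activating genes (0 to 5). They also rose for the IRF5 cytokine genes (0 to 4), the partners (0 to 4) and housekeeping genes (0 to 2). The IRF1 targets, the IRF4-linked genes and the co-factors each went from 0 to 1, and the ISRE genes stayed at 0. In LPS against CON and SUR against LPS the other list counts moved by 1.5 times or less with the block. The block left the log2 ratio of Irf7 to Irf1 at -2.05, -0.21 and -2.26, with sign-flip p of 0.25 or more, the smallest 3 pairs can give. In SUR against LPS, 2 members were called with upper-quartile scaling and 2 with log2(FPKM + 1); in SUR against CON, 0 with only those 2 groups in the fit. Leaving out libraries gave 0 to 5, 0 to 4 and 0 to 2 members in the 3 comparisons and 452 to 3415, 133 to 3391 and 0 to 587 genes; without number 2 they were 0, 0 and 0 members, and without number 1 they were 5, 4 and 2. Of the 34 list-gene calls that the naming rule picked in LPS against CON, 14 moved over 1.5-fold without CON 1 or number 1 (Il12b, on 2 lists, from 6.19 to 9.36), and 2 of 35 did so in SUR against LPS without single libraries or numbers (Ifit3b to -8.40, Ccl22 to -7.43). For SUR against CON, DESeq2 called 259 genes and the 2-group fit 4.

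Reversed signs, none of them past the threshold, were these. Irf2 in LPS against CON was -0.026 with upper-quartile scaling and -0.065 and -0.062 with FPKM pseudocounts of 0.1 and 1. Irf7 was -0.062, -0.12 and -0.11 in LPS against CON and 0.025, 0.061 and 0.057 in SUR against LPS under the same 3 settings. Ifnb1 in SUR against CON was 0.12 with limma-voom and -2.03 to 0.84 without single libraries or numbers. Without single libraries or numbers, Irf7 ran from -0.21 to 0.20, from -0.37 to 0.18 and from -0.33 to 0.17 in the 3 comparisons. In SUR against LPS, Irf1 ran from -0.078 to 0.31, Irf4 from -0.80 to 0.12, Irf9 from -0.10 to 0.28 and the log2 ratio of Irf7 to Irf1 from -0.66 to 0.12. In SUR against CON, Irf3 ran from -0.17 to 0.067, Irf4 from -0.26 to 0.67, Irf2bp1 from -0.16 to 0.074, Irf2bp2 from -0.23 to 0.052 and Irf2bpl from -0.032 to 0.16. The cause was not tested.

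Of all genes, 1013 rose and 1056 fell in LPS against CON, but 765 and 1709 with upper-quartile scaling and 679 and 2056 with log2(FPKM + 0.1); in SUR against LPS 1048 and 895 became 1595 and 616, and 1970 and 505. FPKM with a pseudocount of 0.1 moved the median of all genes by -0.13 in LPS against CON and by 0.14 in SUR against LPS. Irf4, Irf7 and Irf9, at 8.75 to 37.5 CPM, rest on fewer counts than Irf5.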
